A study of Mus musculus with 15 samples.

Results

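The cell cycle genes described here were 48 of the 38277 gene identifiers measured in a mouse hepatic stellate cell line. They were chosen by symbol from general knowledge of the cell cycle, but with earlier results of these data already known. The list was divided into 27 members that act in G1 and S phase and 21 that act in G2 and mitosis. Each symbol was found once in the expression tables, and all 48 members reached 1 FPKM in every library, so none was lost to the filter on low values. FPKM is the number of fragments per kilobase of transcript, scaled to the mapped fragments of the library, so levels of different genes are compared per length.

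Progress through G1 is driven by D-type cyclins, which bind Cdk4 and Cdk6 and phosphorylate the retinoblastoma protein, and then by E-type cyclins with Cdk2. Phosphorylation of the retinoblastoma protein frees E2F factors, which switch on genes for licensing of replication origins and for DNA synthesis. Later in the cycle the transcription factors B-Myb and FoxM1 act with the MuvB complex on genes for mitosis. In injured liver, stellate cells leave quiescence, divide and become collagen-producing myofibroblasts under signals that include TGFβ, a cytokine also known for holding many epithelial cells in G1.

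RNA sequencing covered 15 libraries of the line JS1, and the comparison asked what overexpression of exportin-4 (XPO4), a nuclear transport receptor, does with and without TGFβ. Every group shared the background of the line, which comes from TLR4-/- mouse stellate cells that express WT TLR4. The groups were control empty vector at baseline with no treatment (n = 4), XPO4 overexpression at baseline (n = 3), control empty vector with TGFβ (n = 4) and XPO4 overexpression with TGFβ (n = 4). The labels give neither a dose or duration of TGFβ nor whether replicates were separate cultures, so the p-values reflect library-to-library spread that could be technical.

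Xpo4 itself was 7.61 ± 1.44 FPKM (SD, n = 4) with the empty vector and 15.7 ± 1.69 (n = 3) with XPO4 at baseline, and 7.15 ± 1.86 (n = 4) and 14.6 ± 1.42 (n = 4) with TGFβ. The libraries of the XPO4 groups lay above those of the empty-vector groups, from 12.8 to 17.4 FPKM against 4.56 to 9.33. Of 8 stellate cell markers, only 4 or 5 had a group mean of at least 1 FPKM, with Vim, Col1a1, Acta2 and Des among them. The rest of the list was Pdgfrb, Reln, Hgf and Lrat, and Lrat was listed at 0 in all libraries. Acta2, the smooth muscle actin of myofibroblasts, was lower with XPO4 by log2 changes of -1.22 at baseline (SE 0.13, limma adjusted p = 0.000719) and -1.46 with TGFβ (SE 0.12, limma adjusted p = 4.57e-05). It was higher with TGFβ by 1.16 in empty-vector and 0.91 in XPO4 cells (limma adjusted p = 0.000128 and 0.00157). Col1a1, a collagen gene, was higher with TGFβ by 0.73 and 0.82 (limma adjusted p = 5.52e-05 and 2.87e-05). The part of these differences in the results below was not tested. Hepatocyte markers summed to at most 0.636 FPKM in any library and endothelial markers to at most 1.54. Macrophage markers summed to between 4.50 and 9.79 FPKM, mostly Cd68 and Csf1r with Ptprc near 0, and cholangiocyte markers to between 3.80 and 12.2, with Epcam at 0. The macrophage sums were 4.50 to 7.74 FPKM in XPO4 cells with TGFβ, overlapping 7.29 to 9.45 in empty-vector cells with TGFβ, and were 7.06 to 8.88 and 8.81 to 9.79 at baseline. Their part in the results was not tested. FPKM summed to between 480030 and 526338 per library and the number of reads is unknown. In RNA from a whole culture, fewer cells in a phase and less RNA per cell cannot be told apart.

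The promoters of the 2 sets differed in short motifs, which are shown because the sets are compared throughout. RefSeq promoter windows of 300 bases (build GRCm38.p6, from 250 bases before to 50 after the start) were matched for 39 of the 48 members. Motifs were searched on both strands. For E2F the words were TTTCCCGC, TTTGGCGC, TTTCGCGC and TTTGCCGC, which can overlap one another. The cell cycle homology region (CHR), where MuvB binds, was searched as TTTGAA, and the CCAAT box, where NF-Y binds, as CCAAT. An E2F word was present in 39.1% of the 23 matched G1/S members and in 6.25% of the 16 matched G2/M members. The share was 2.6% of all 27025 genes with a window, which were not limited to genes expressed in these cells. TTTGAA was present in 8.7% of the G1/S members, 68.8% of the G2/M members and 20.2% of all genes. CCAAT was present in 65.2%, 87.5% and 41.1%, and both of these in 8.7%, 68.8% and 7.97%. Among the 9 genes of replication licensing, 6 of the 8 with a window held an E2F word. A match is a description of letters and not evidence of binding. The 120 bases before the start are given below 5′ to 3′ for Mcm6 as a G1/S example, for Top2a as a G2/M example, and for Ccnb2 and Mybl2, the 2 members that were lower with XPO4 at baseline. Capitals mark the motifs.
Mcm6 (chr1:128359706-128359825, minus strand): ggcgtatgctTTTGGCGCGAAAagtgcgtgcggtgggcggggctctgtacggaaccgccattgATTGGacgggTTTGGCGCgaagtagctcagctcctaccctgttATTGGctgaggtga
Top2a (chr11:99024190-99024309, minus strand): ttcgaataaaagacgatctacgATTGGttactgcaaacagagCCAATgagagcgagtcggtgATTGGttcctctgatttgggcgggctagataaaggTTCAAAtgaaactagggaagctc
Ccnb2 (chr9:70421555-70421674, minus strand): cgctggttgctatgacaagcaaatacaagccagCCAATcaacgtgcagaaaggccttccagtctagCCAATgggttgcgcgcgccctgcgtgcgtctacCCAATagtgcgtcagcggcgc
Mybl2 (chr2:163054515-163054634, plus strand): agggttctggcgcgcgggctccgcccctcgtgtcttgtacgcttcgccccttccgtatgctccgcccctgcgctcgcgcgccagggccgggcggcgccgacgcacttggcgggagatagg
The Mcm6 stretch holds 2 overlapping E2F words on opposite strands, another E2F word and 2 CCAAT boxes. The Top2a stretch holds 3 CCAAT boxes and a CHR close to the start. The Ccnb2 stretch holds 3 CCAAT boxes in a row. Its 300-base window holds 2 TTTGAA words outside the printed bases, at -167 and 5 from the start. The Mybl2 stretch holds none of the searched words. Only exact words were searched, so an E2F site with other letters would be missed.

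The members were well expressed. In empty-vector cells at baseline 42 of the 48 lay above the median of all tested genes, 14.1 FPKM, and 11 lay in the top 10%, above 77.6 FPKM. Pcna, the sliding clamp of DNA polymerases, stood highest at 216 ± 13.9 FPKM (SD, n = 4), and its libraries overlapped those of the next, Cdk4, at 207 ± 15.2. After these came Top2a, the topoisomerase that untangles chromosomes, at 157.1 ± 9.26, Birc5, a subunit of the chromosomal passenger complex, at 154.4 ± 13.0, and Ccnd1, cyclin D1, at 148 ± 6.60, and neighbours in this order overlapped. The lowest were Cenpe, a kinetochore motor, at 4.72 ± 0.323 and E2f2, an activating E2F, at 4.12 ± 0.354, which also overlapped. Within families, Cdk4 was 19.5 times the level of Cdk6, Ccnd1 was 2.41 times that of Ccnd2 and Ccnb1 was 2.38 times that of Ccnb2. The median coefficient of variation of the members was between 7.65% and 9.95% in the 4 groups.

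**Figure D1:**
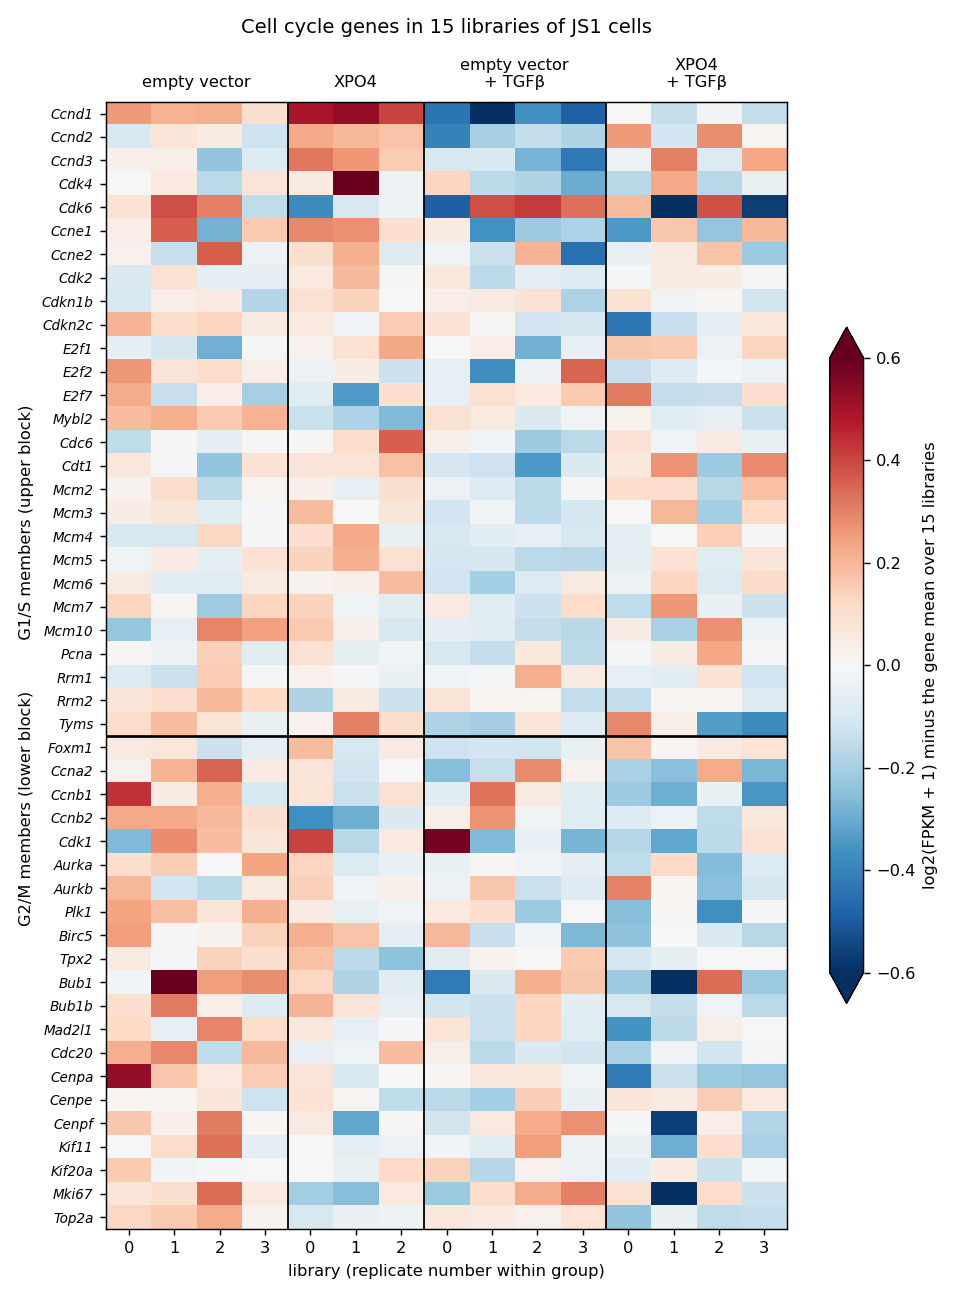
Level of each of the 48 members (rows, G1/S above the line and G2/M below it) in each of the 15 libraries (columns, by group and replicate number), as log2(FPKM + 1) minus the gene's mean over all libraries; colours saturate at 0.6 in either direction. Ccnd1 is the row with the clearest blocks, high with XPO4 at baseline and low in empty-vector cells with TGFβ, while most rows vary as much within groups as between them.

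Cyclin D1 carried the clearest changes. Ccnd1 (GENCODE M21, mm10, chromosome 7, 144929931 to 144939925, minus strand) encodes the D-type cyclin that links growth signals to Cdk4 and Cdk6. In empty-vector cells at baseline replicates 0 to 3 gave 154.5, 149.5, 151 and 139 FPKM, and XPO4 replicates 0 to 2 gave 182, 187 and 172. With TGFβ the empty-vector replicates gave 95.4, 84.5, 99.9 and 92.1 FPKM and the XPO4 replicates gave 129, 117, 128 and 117. The 4 groups did not overlap: XPO4 cells at baseline were highest, followed by empty-vector cells at baseline, XPO4 cells with TGFβ and empty-vector cells with TGFβ.

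With TGFβ, Ccnd1 fell in empty-vector cells from 148 ± 6.60 to 93.0 ± 6.49 FPKM, a log2 change of -0.67 (SE 0.06, limma adjusted p = 6.67e-05). It also fell in XPO4 cells, from 180.4 ± 7.83 to 122.9 ± 6.67 FPKM, by -0.55 (SE 0.07, limma adjusted p = 0.000463). Both changes are on the log2(FPKM + 1) scale, and the baseline and TGFβ libraries come from separate tables, so a difference between tables cannot be told apart from TGFβ. Both calls passed in each of 15 refits that dropped 1 library. XPO4 raised Ccnd1 under TGFβ by 0.40 (SE 0.08, limma adjusted p = 0.0173). At baseline the difference was 0.28 (SE 0.06, limma adjusted p = 0.0543) and did not pass. The rise under TGFβ did not pass when empty-vector replicate 1 (adjusted p = 0.0659), empty-vector replicate 3 (0.0597) or XPO4 replicate 0 (0.0705) was left out, nor on the TPM scale (0.058) or after quantile normalization (0.0677). The change of the XPO4 effect with TGFβ was 0.12 (SE 0.10, limma adjusted p = 1).

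The gene next to Ccnd1 followed the same order of group means. Oraov1, which overlaps Ccnd1 by 1771 bases on the opposite strand, was 75.7 ± 5.27 FPKM (SD, n = 4) with the empty vector and 91.5 ± 3.51 (n = 3) with XPO4 at baseline, and 50.7 ± 3.04 (n = 4) and 66.3 ± 6.95 (n = 4) with TGFβ. Unlike for Ccnd1, libraries overlapped between the empty vector at baseline (72.0 to 83.5 FPKM) and XPO4 with TGFβ (58.6 to 74.4). The log2 change of Oraov1 with TGFβ was -0.57 (SE 0.08, limma adjusted p = 0.00114) in empty-vector cells and -0.46 (SE 0.09, limma adjusted p = 0.00836) in XPO4 cells. With XPO4 it was 0.27 at baseline (SE 0.07, limma adjusted p = 0.0984) and 0.38 with TGFβ (SE 0.09, limma adjusted p = 0.0587), and neither passed. The libraries were strand-specific, but the sources used here do not say whether fragments were assigned by strand. How many fragments the 2 genes share was not tested. Oraov1 was looked up after the values of Ccnd1 had been seen.

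**Figure D2:**
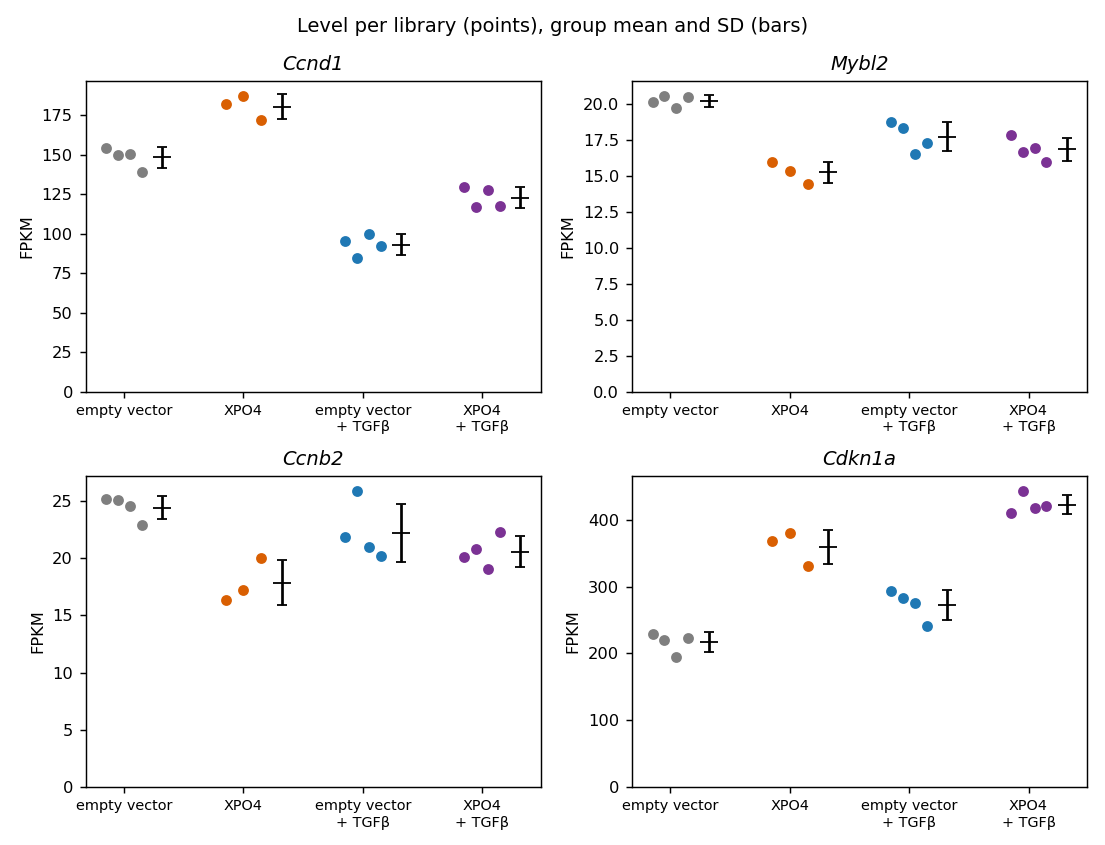
FPKM of Ccnd1, Mybl2, Ccnb2 and the CDK inhibitor gene Cdkn1a in each library (points) with the group mean and SD (bars), for the 4 groups; each axis starts at 0. Ccnd1 separates all 4 groups, Mybl2 and Ccnb2 are lower with XPO4 at baseline and overlap with TGFβ, and Cdkn1a is highest in XPO4 cells with TGFβ.

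Across all 48 members, XPO4 raised none and lowered 2 at baseline, where 2.85% of 11926 tested genes were called higher and 0.864% lower. With TGFβ it raised 1 and lowered none, where 2.89% of 11976 genes were called higher and 0.852% lower. Counts of 1 and 2 are too few to set the members apart from all genes. At an unadjusted p under 0.05 there were 4 higher and 6 lower members at baseline, against 15.2% of all genes, and 4 and 3 with TGFβ, against 14%. The 95% intervals of all 48 members lay within 1 log2 unit of 0 in both comparisons, and those of 44 lay within 1.5-fold. Groups did not overlap for 6 members that were higher and 5 that were lower at baseline, against 8.23% and 7.93% of all genes. With TGFβ these were 5 and 2 members, against 6.03% and 4.22%.

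The other D-type cyclins lay on the same side as Ccnd1 with XPO4, and neither passed the test. Ccnd2 was 61.5 ± 4.41 FPKM with the empty vector and 71.8 ± 1.45 with XPO4 at baseline (log2 difference 0.22, SE 0.07, limma adjusted p = 0.184), and 53.1 ± 4.28 and 67.8 ± 8.92 with TGFβ (0.34, SE 0.11, adjusted p = 0.152). Ccnd3 was 116 ± 10.1 and 143 ± 8.14 FPKM at baseline (0.31, SE 0.08, limma adjusted p = 0.103) and 104 ± 11.6 and 131 ± 17.4 with TGFβ (0.33, SE 0.11, adjusted p = 0.202). For all 3 D-type cyclins the XPO4 libraries lay above the empty-vector libraries at both treatments. With TGFβ this separation was narrow for Ccnd2 and Ccnd3. The highest empty-vector and lowest XPO4 libraries were 56.47 and 57.54 FPKM for Ccnd2, and 113.4 and 114.1 for Ccnd3. The kinases of the D-type cyclins did not separate the groups. Cdk4 ranged from 186 to 219 FPKM with the empty vector and from 203 to 329.8 with XPO4 at baseline, the highest value being that of replicate 1. Cdk6 ranged from 8.32 to 12.5 FPKM and from 6.94 to 9.15.

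E-type cyclins and the 2 CDK inhibitors showed overlapping groups in every comparison. Ccne1, cyclin E1, was 9.55 ± 1.90 FPKM with the empty vector and 10.6 ± 0.833 with XPO4 at baseline, and Ccne2 was 16.0 ± 2.67 and 16.2 ± 1.72. Cdk2, their kinase, was 69.9 ± 3.99 and 75.7 ± 5.26 FPKM. Cdkn1b, which encodes p27, an inhibitor of Cdk2 complexes, gave 29.5, 32.4, 32.8 and 27.9 FPKM in empty-vector replicates 0 to 3 and 33.7, 34.8 and 31.6 in XPO4 replicates 0 to 2 at baseline. With TGFβ, Cdkn1b gave 32.5, 32.9, 33.6 and 27.6 FPKM with the empty vector and 33.7, 31.2, 31.7 and 29.1 with XPO4. These libraries overlapped throughout, and the p27 gene differed by at most 0.12 in any XPO4 or TGFβ comparison on the log2 scale. Cdkn2c, which encodes p18, an inhibitor of Cdk4 and Cdk6, gave 57.5, 53.7, 54.4 and 51.7 FPKM with the empty vector and 51.8, 49.0 and 55.4 with XPO4 at baseline. With TGFβ, Cdkn2c gave 53.0, 49.96, 45.8 and 46.4 FPKM and 36.6, 45.1, 47.9 and 52.1. XPO4 replicate 0 with TGFβ was the lowest library, and the groups overlapped.

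Among the transcription factors, Mybl2 fell and the others did not pass the test. Mybl2 (chromosome 2, 163054687 to 163084688, plus strand) encodes B-Myb, an E2F target that works with MuvB. At baseline, empty-vector replicates 0 to 3 gave 20.1, 20.6, 19.7 and 20.5 FPKM and XPO4 replicates 0 to 2 gave 15.9, 15.3 and 14.5, with no overlap. This was a log2 change of -0.39 (SE 0.08, limma adjusted p = 0.0295). With TGFβ the replicates gave 18.7, 18.4, 16.5 and 17.3 FPKM with the empty vector and 17.8, 16.7, 16.9 and 15.9 with XPO4, which overlapped (-0.07, SE 0.09, limma adjusted p = 0.82). The call at baseline ended in 6 of 7 refits that each left out 1 library, all but the one without empty-vector replicate 2, where adjusted p ranged from 0.0339 to 0.118. It also ended with the library set as a term in the fit (adjusted p = 0.0533). The sets are 2 runs of library codes, one with the replicates numbered 0 and 1 and the other with the rest, and no label calls them batches. The difference was -0.36 in the first and -0.45 in the second, which holds only 1 XPO4 library at baseline.

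E2f1, the first activating E2F, gave 34.4, 33.2, 29.2 and 35.6 FPKM with the empty vector and 36.5, 38.3 and 42.4 with XPO4 at baseline, where the groups did not overlap (log2 difference 0.23, SE 0.09, limma adjusted p = 0.27). With TGFβ it gave 35.9, 36.9, 29.2 and 34.6 FPKM and 40.2, 40.1, 35.0 and 39.3, and the groups overlapped. Foxm1, a driver of mitotic genes, was 67.5 ± 4.34 and 70.6 ± 7.02 FPKM at baseline, overlapping. With TGFβ, Foxm1 was 63.5 ± 1.72 and 71.9 ± 3.56 FPKM (0.18, SE 0.07, limma adjusted p = 0.275). It was the only G2/M member higher with XPO4 without overlap under TGFβ. E2f2 and E2f7, an E2F that represses, overlapped between groups in both XPO4 comparisons.

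The licensing genes, which load the MCM helicase onto origins, lay slightly above the empty vector with XPO4 as a group, and none of the 9 passed the test. At baseline 8 of 9 were above 0, with a median log2 difference of 0.09, and with TGFβ again 8 of 9, with a median of 0.13. The median over all tested genes was 0.00 in both. On the TPM scale 6 of 9 were above 0 at baseline, with a median of 0.05. With TGFβ that scale moved the median of all tested genes to -0.06. It also moved the median of all G1/S members with TGFβ from 0.10 to 0.05. Mcm2, a subunit of the helicase, gave 88.4, 93.9, 77.98 and 88.1 FPKM with the empty vector and 89.2, 84.2 and 93.3 with XPO4 at baseline. With TGFβ, Mcm2 gave 84.9, 82.6, 77.9 and 86.5 FPKM and 93.9, 93.7, 77.6 and 98.5. The Mcm2 libraries overlapped at both treatments. Mcm5 was the licensing gene whose groups did not overlap at either treatment, with 38.3 ± 1.79 and 42.0 ± 1.84 FPKM at baseline and 34.5 ± 0.924 and 38.1 ± 2.28 with TGFβ (log2 differences 0.13 and 0.14, SE 0.07 and 0.08, limma adjusted p = 0.463 and 0.478). Cdc6, a loader of the helicase, was 25.8 ± 1.38 and 30.1 ± 3.97 FPKM at baseline without overlap (0.21, SE 0.10, limma adjusted p = 0.375) and overlapped with TGFβ. Both baseline separations were very narrow. The lowest XPO4 and highest empty-vector libraries were 40.37 and 40.29 FPKM for Mcm5, and 26.87 and 26.84 for Cdc6. Cdt1, the partner of Cdc6, the other helicase subunits Mcm3, Mcm4, Mcm6 and Mcm7, and the firing factor Mcm10 overlapped at both treatments.

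Genes of the replication fork and of nucleotide supply showed no call, and their median log2 difference with XPO4 at baseline was 0.00 as deposited and -0.04 on the TPM scale. Pcna gave 214, 209, 235 and 204 FPKM with the empty vector and 227, 206 and 210.5 with XPO4 at baseline. With TGFβ, Pcna gave 199.8, 193, 223 and 191 FPKM and 212, 219.9, 251 and 212. The groups overlapped at both treatments. Rrm2, the small subunit of ribonucleotide reductase, was lower in every XPO4 library at baseline, 116 ± 4.37 against 100.3 ± 8.77 FPKM (log2 difference -0.21, SE 0.07, limma adjusted p = 0.219), and overlapped with TGFβ. Rrm1, the large subunit, and Tyms, thymidylate synthase, overlapped in both comparisons.

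In the G2/M set, Ccnb2 fell with XPO4 at baseline. Ccnb2 (chromosome 9, 70407692 to 70421547, minus strand) encodes cyclin B2, a partner of Cdk1 in mitosis. Empty-vector replicates 0 to 3 gave 25.2, 25.1, 24.6 and 22.9 FPKM and XPO4 replicates 0 to 2 gave 16.3, 17.2 and 20.1, with no overlap. Its level changed by -0.44 on the log2 scale (SE 0.09, limma adjusted p = 0.0378). The change was -0.56 in the first library set and -0.23 in the second, which holds only 1 XPO4 library at baseline. With TGFβ the replicates gave 21.9, 25.9, 21.01 and 20.2 FPKM with the empty vector and 20.2, 20.8, 19.1 and 22.3 with XPO4, which overlapped (-0.10, SE 0.10, limma adjusted p = 0.758). The call ended in 6 of 7 refits that left out 1 library, all but the one without XPO4 replicate 2, with the library set as a term (adjusted p = 0.0748), without the filter (0.0514) and without the intensity trend (0.061). A processed pseudogene, Ccnb2-ps, was listed at 0 to 0.951 FPKM.

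The other mitotic cyclins and Cdk1 did not pass. Ccnb1, cyclin B1, gave 70.5, 53.7, 60.2 and 48.5 FPKM with the empty vector and 54.9, 47.2 and 55.3 with XPO4 at baseline. With TGFβ, Ccnb1 gave 49.6, 65.3, 53.8 and 49.6 FPKM and 44.5, 42.2, 50.5 and 40.5 (log2 difference -0.29, SE 0.11, limma adjusted p = 0.256). The highest XPO4 library with TGFβ, replicate 2, lay just above empty-vector replicates 0 and 3, and the other XPO4 libraries lay below all of the empty vector. Cdk1, the mitotic kinase, gave 57.6, 84.7, 79.1 and 73.1 FPKM with the empty vector and 92.1, 61.6 and 72.2 with XPO4 at baseline. With TGFβ, Cdk1 gave 103.6, 57.5, 66.9 and 57.0 FPKM and 61.5, 55.6, 62.2 and 73.8. Cdk1 varied widely within each group. Ccna2, cyclin A2, was 84.7 ± 9.15 and 75.0 ± 5.14 FPKM at baseline, overlapping.

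Top2a and Cenpa were the G2/M members with the smallest p under TGFβ, and neither passed after adjustment. Top2a gave 156.2, 159.8, 167.2 and 145 FPKM with the empty vector and 134, 139 and 140.0 with XPO4 at baseline, without overlap (log2 difference -0.19, SE 0.07, limma adjusted p = 0.212). With TGFβ it gave 149, 148, 146 and 151 FPKM and 121, 139, 129 and 129.7, again without overlap (-0.20, SE 0.07, limma adjusted p = 0.192). Top2a libraries with XPO4 thus lay below those with the empty vector at both treatments. Cenpa, the histone variant that marks centromeres, was 68.0 ± 10.4 and 57.4 ± 3.39 FPKM at baseline, overlapping. With TGFβ, Cenpa was 58.8 ± 1.83 and 48.3 ± 4.10 FPKM without overlap (-0.28, SE 0.08, limma adjusted p = 0.113). Mki67, the gene of the proliferation antigen Ki-67, gave 37.8, 38.4, 45.6 and 37.4 FPKM with the empty vector and 30.9, 29.8 and 37.4 with XPO4 at baseline (-0.28, SE 0.11, limma adjusted p = 0.255). With TGFβ, Mki67 gave 30.6, 38.6, 42.0 and 44.5 FPKM and 38.2, 22.9, 38.8 and 32.7. XPO4 replicate 2 reached the range of the empty vector at baseline, and the groups overlapped with TGFβ.

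None of the remaining mitotic genes passed the test. Of the 7 genes of centromeres, kinesins and chromatin, all lay below 0 at baseline (median log2 difference -0.19) and 6 with TGFβ (median -0.20), Cenpe being the exception. The highest of the 7 at baseline was -0.005, near the median of all tested genes, -0.004. Groups overlapped at both treatments for Cenpe, the kinetochore protein gene Cenpf and the kinesin genes Kif11 and Kif20a. With TGFβ, Cenpf was 9.05 ± 1.19 FPKM with the empty vector and 7.30 ± 1.46 with XPO4 (-0.29, SE 0.16, limma adjusted p = 0.471). All 4 spindle checkpoint genes, Bub1, Bub1b, Mad2l1 and their target Cdc20, lay below 0 at both treatments, with medians of -0.11 and -0.09, and their groups overlapped. The highest of the 4 was -0.02 at baseline. With TGFβ it was -0.005, the same as the median of all tested genes to this rounding. Bub1, a checkpoint kinase, differed most of the 4 at baseline, with 12.7 ± 2.58 and 9.84 ± 1.16 FPKM (-0.33, SE 0.16, limma adjusted p = 0.373). Of the mitotic kinases and their partners, Plk1, a kinase of mitotic entry, was 71.6 ± 3.54 and 62.9 ± 2.29 FPKM at baseline without overlap (-0.18, SE 0.07, limma adjusted p = 0.242), and Aurka, Aurkb, Birc5 and the spindle factor Tpx2 overlapped.

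**Figure D3:**
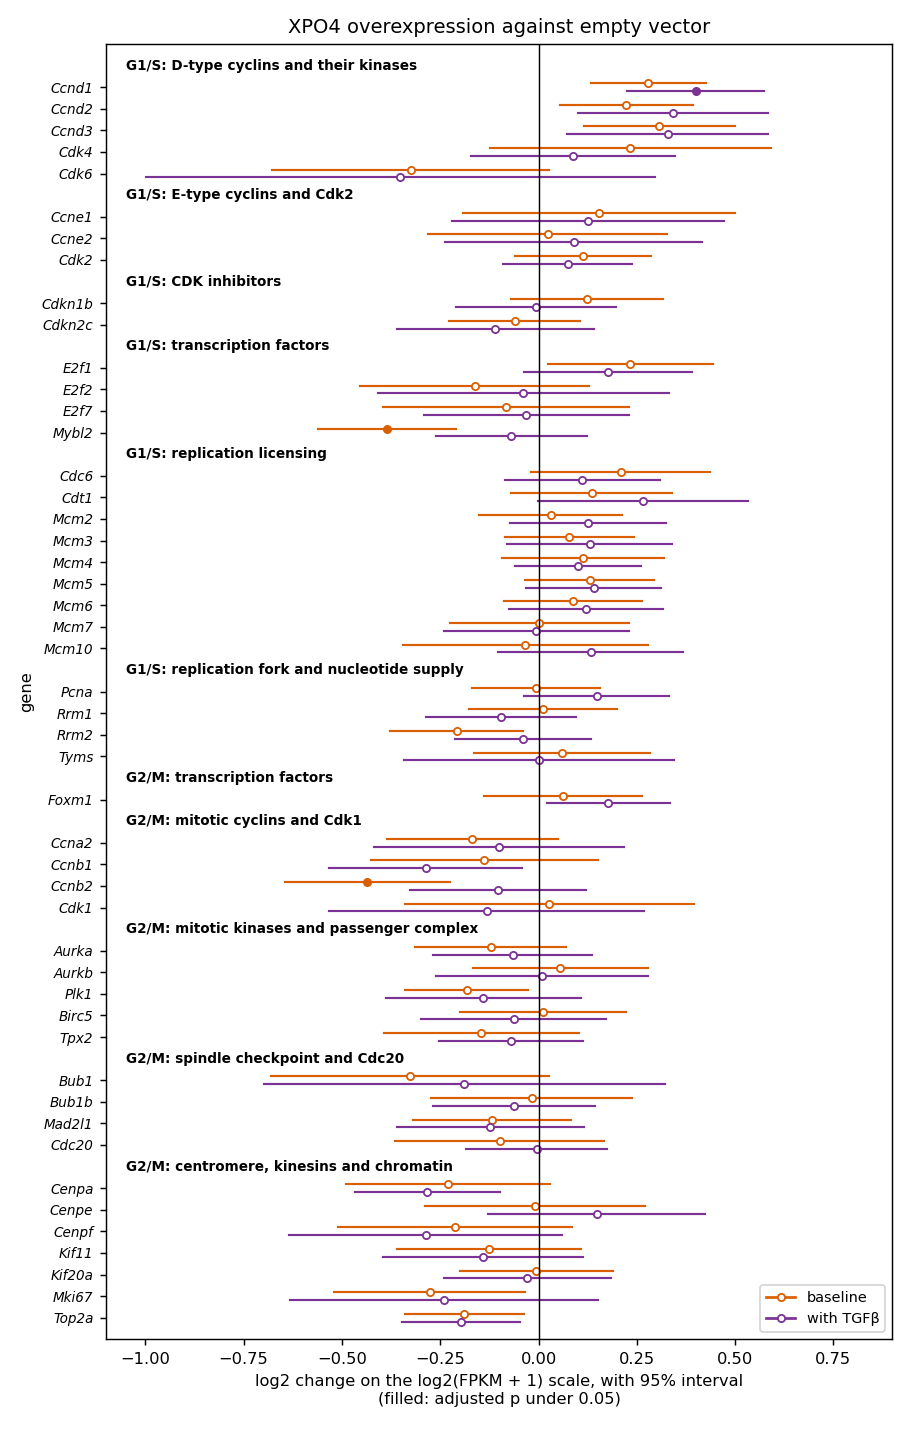
Log2 difference between XPO4 and empty-vector cells, on the log2(FPKM + 1) scale, with its 95% interval for each member at baseline (orange) and with TGFβ (purple), in order of role; filled points passed the adjusted threshold of 0.05. Filled points are Mybl2 and Ccnb2 at baseline and Ccnd1 with TGFβ, most other intervals cross 0, and G2/M points lie mostly left of 0.

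Set side by side, the phases lay on opposite sides of 0 with XPO4. At baseline the median log2 difference was 0.08 over the 27 G1/S members and -0.13 over the 21 G2/M members, with 19 and 4 members above 0. On the TPM scale 15 of the 27 G1/S members were above 0 and 19 of the 21 G2/M members below. With TGFβ the medians were 0.10 and -0.10, with 18 and 3 above 0. The 2 comparisons share no libraries. In both, 16 G1/S members were above 0, 6 below and 5 changed side, while 2 G2/M members were above, 16 below and 3 changed side. These counts describe the list and have no test.

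A score per library, the mean of log2(FPKM + 1) over the members of a phase, shows these same values by library and is not separate evidence. At baseline the G1/S score was 5.52, 5.54, 5.51 and 5.51 in empty-vector replicates 0 to 3 and 5.56, 5.60 and 5.55 in XPO4 replicates 0 to 2. The G2/M score was 5.42, 5.42, 5.41 and 5.35 with the empty vector and 5.353, 5.20 and 5.28 with XPO4, so that the highest XPO4 library lay directly below the lowest empty-vector library. With TGFβ the G1/S score was 5.42, 5.40, 5.41 and 5.39 with the empty vector and 5.49, 5.50, 5.48 and 5.47 with XPO4, and the G2/M score was 5.27, 5.27, 5.34 and 5.28 against 5.17, 5.12, 5.25 and 5.19. XPO4 libraries were higher for G1/S and lower for G2/M at both treatments, without overlap.

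The G2/M score minus the G1/S score, which scaling a whole library hardly shifts, was -0.12 ± 0.03 (SD, n = 4) with the empty vector and -0.29 ± 0.10 (n = 3) with XPO4 at baseline, and -0.12 ± 0.03 (n = 4) and -0.30 ± 0.06 (n = 4) with TGFβ. The difference with XPO4 was -0.17 at baseline, or -0.19 and -0.14 in the 2 library sets, and -0.18 with TGFβ, or -0.21 and -0.16. At baseline the second set holds only 1 XPO4 library. Without XPO4 replicate 1 the baseline difference was -0.12. At baseline the G1/S score differed by 0.05, and without Ccnd1, Ccnd2 and Ccnd3 by 0.02, with overlapping groups. With TGFβ it differed by 0.08, and without these 3 genes by 0.04, with no overlap. On the TPM scale the G1/S difference was 0.00329 at baseline and 0.0269 with TGFβ. After quantile normalization it was 0.0175 at baseline and 0.0411 with TGFβ. The score without the 3 D-type cyclins was not tried on either scale.

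**Figure D4:**
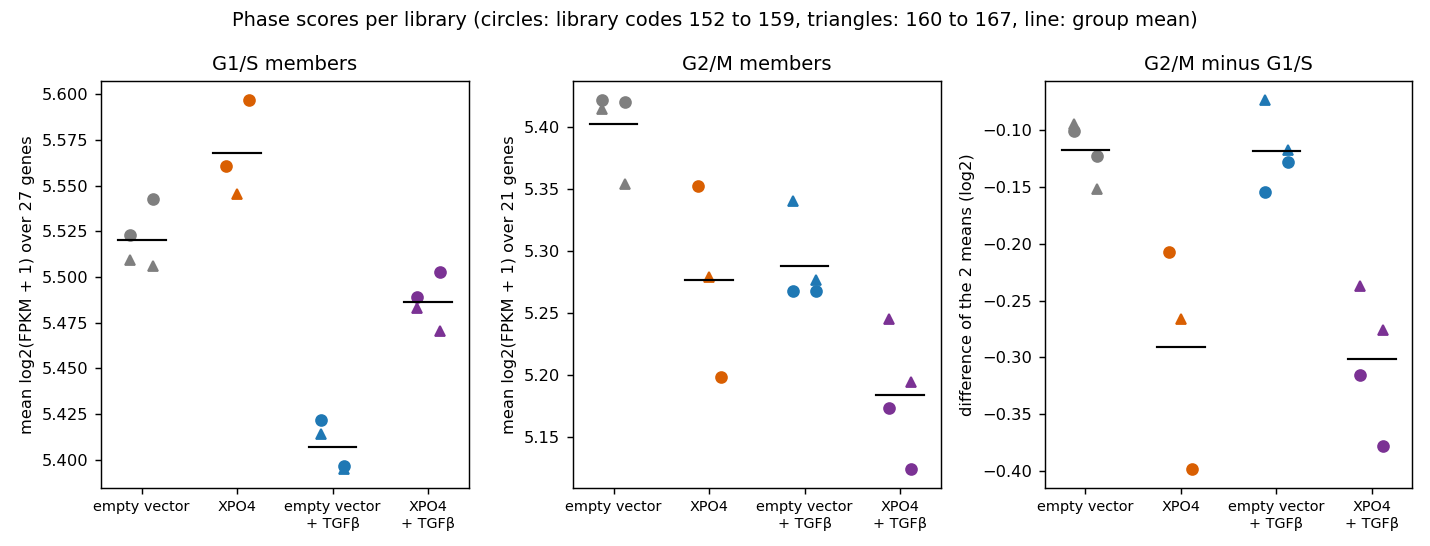
Mean log2(FPKM + 1) over the 27 G1/S members, over the 21 G2/M members, and their difference, in each library (points, by library code set) with the group mean (line); the axes do not start at 0. XPO4 libraries lie above the empty vector for G1/S and below it for G2/M at each treatment, and G2/M minus G1/S is lower in all 7 XPO4 libraries than in all 8 empty-vector libraries.

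TGFβ lowered 1 of the 48 members in empty-vector cells and 1 in XPO4 cells, Ccnd1 in each, and raised none. Of 11951 tested genes, 1.24% were called higher and 0.536% lower in empty-vector cells, and 1.19% and 0.577% in XPO4 cells. At an unadjusted p under 0.05 there were 5 lower members in empty-vector cells, against 11.5% of all genes, and 3 in XPO4 cells, against 10.1%, with none higher. Groups did not overlap for 4 lower members in empty-vector cells, Ccnd1, Ccnd2, Mybl2 and Mcm5, against 3.57% of all genes, and for 3 in XPO4 cells, Ccnd1, Mcm5 and Cenpa, against 4.46%. No member was higher without overlap, against 4.25% and 5.39% of all genes. The 95% intervals of 46 and 42 members lay within 1.5-fold.

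Most members lay slightly lower with TGFβ in both phases. In empty-vector cells 22 of 27 G1/S members and all 21 G2/M members were below 0, with median log2 differences of -0.12 and -0.09 against -0.01 over all genes. In XPO4 cells 22 of 27 and 17 of 21 were below 0, with medians of -0.06 and -0.09. The G1/S score was 0.11 lower on the log2 scale in empty-vector cells, from 5.52 ± 0.02 to 5.41 ± 0.01 (SD, n = 4 each), and the G2/M score went from 5.40 ± 0.03 to 5.29 ± 0.04, both without overlap. In XPO4 cells the G1/S score went from 5.57 ± 0.03 (n = 3) to 5.49 ± 0.01 (n = 4) without overlap, and the G2/M score from 5.28 ± 0.08 to 5.18 ± 0.05 with overlap. The tables of the 2 treatments are separate, and a shift between them cannot be told apart from TGFβ. The G2/M score minus the G1/S score differed by 0.00 in empty-vector cells and by -0.01 in XPO4 cells, both with overlap.

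Beside Ccnd1, individual differences with TGFβ were small and none was called. Bub1 had the lowest log2 difference of the G2/M members in empty-vector cells, -0.32. Ccne1 lay at -0.25 in empty-vector cells and -0.28 in XPO4 cells. Ccnd2 in empty-vector cells was 61.5 ± 4.41 FPKM at baseline and 53.1 ± 4.28 with TGFβ (log2 difference -0.21, SE 0.09, limma adjusted p = 0.39). The ratio of Ccnd1 to Ccnd2 went from 2.41 to 1.75 in empty-vector cells and from 2.51 to 1.81 in XPO4 cells. Cdc20, the activator of the anaphase-promoting complex, was 56.0 ± 7.31 and 47.8 ± 2.82 FPKM in empty-vector cells (-0.22, SE 0.09, limma adjusted p = 0.377). Cenpa in XPO4 cells was 57.4 ± 3.39 and 48.3 ± 4.10 FPKM (-0.25, SE 0.10, limma adjusted p = 0.37).

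**Figure D5:**
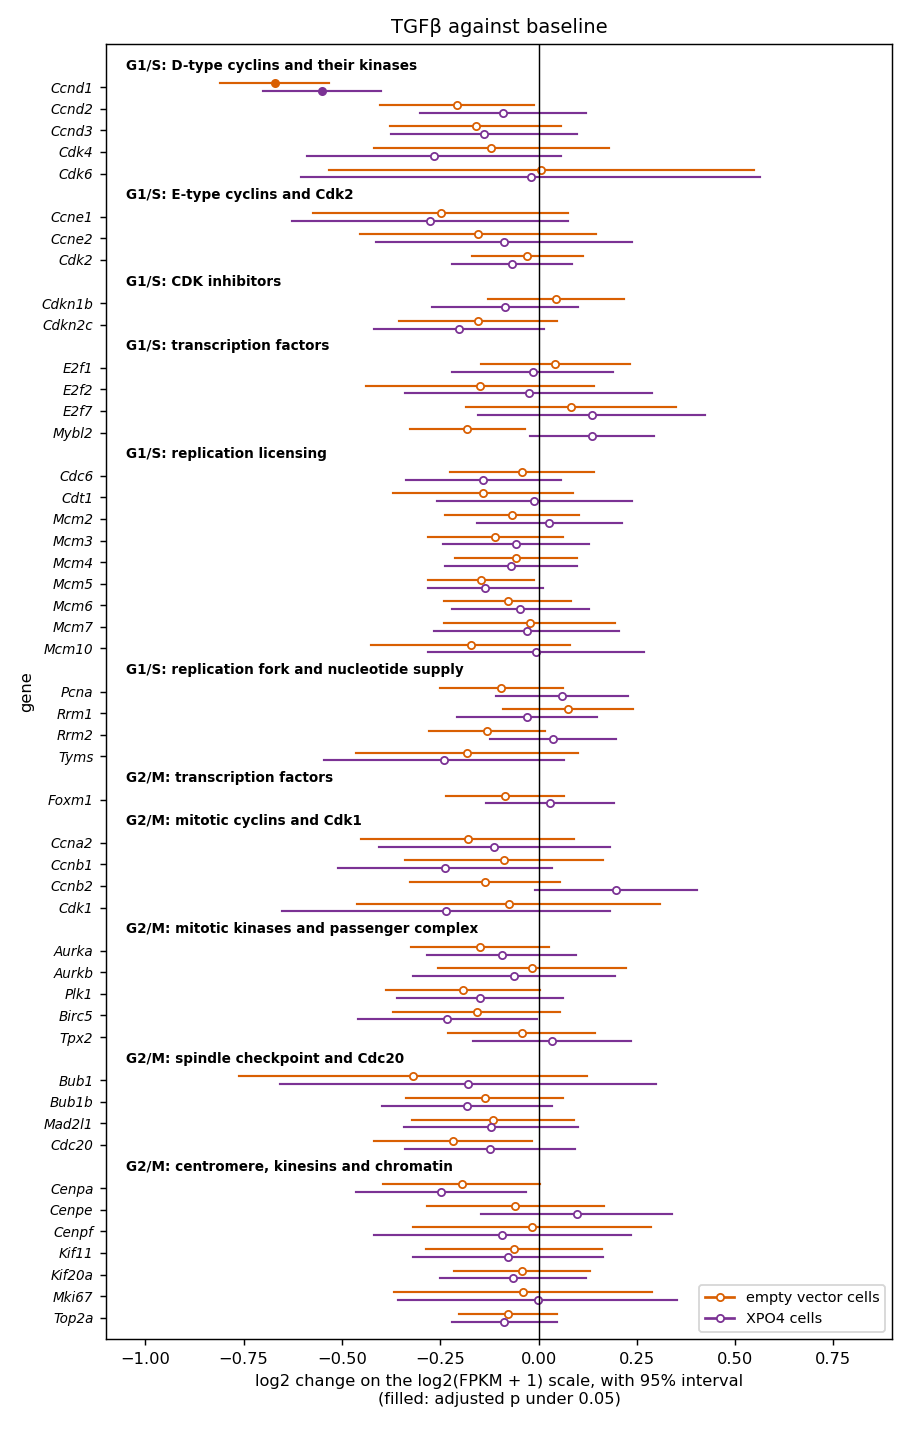
Log2 difference between TGFβ and baseline, on the log2(FPKM + 1) scale, with its 95% interval for each member in empty-vector cells (orange) and XPO4 cells (purple), in order of role; filled points passed the adjusted threshold of 0.05. Ccnd1 passed in both and lies apart from the other members, whose intervals mostly cross 0.

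The effect of XPO4 did not differ detectably between treatments for any member. No gene of the 11951 tested was called in the interaction by limma (0% in either direction), and 2.88% of them had an unadjusted p under 0.05. Among the members, 2 did: Mybl2 (0.32, SE 0.10) and Ccnb2 (0.33, SE 0.13), both with a limma adjusted p of 1. The intervals of 43 of 48 members lay within 1.5-fold.

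Other genes of the cell cycle were read from 7 further lists. Of 5 other CDK inhibitor genes, 4 were tested, and Cdkn1a, which encodes p21, rose with XPO4 from 217 ± 14.9 to 359.6 ± 25.6 FPKM at baseline (log2 change 0.73, SE 0.08, limma adjusted p = 0.000741) and from 273 ± 22.4 to 423 ± 14.3 with TGFβ (0.63, SE 0.08, limma adjusted p = 0.000709). Each XPO4 library lay above each empty-vector library, and no left-out library ended either call. With TGFβ, Cdkn1a also rose in empty-vector cells by 0.33 (SE 0.07, limma adjusted p = 0.0289), a call that ended in 7 of 15 refits without 1 library.

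Of 18 genes of the anaphase-promoting complex and its substrates, 1 rose and 1 fell at baseline, where 2.85% of all tested genes were called higher and 0.864% lower. With TGFβ 2 rose, where 2.89% of all genes were called higher. At baseline Fbxo5, an inhibitor of the complex, rose from 34.3 ± 5.47 to 50.4 ± 3.08 FPKM (0.55, SE 0.12, limma adjusted p = 0.0387), and the subunit Cdc26 fell from 29.9 ± 1.49 to 20.9 ± 2.18 (-0.50, SE 0.09, limma adjusted p = 0.0183). With TGFβ, Pttg1, securin, gave 33.5, 25.3, 39.8 and 20.5 FPKM with the empty vector and 88.9, 65.3, 45.4 and 81.0 with XPO4 (1.21, SE 0.24, limma adjusted p = 0.0182). The groups did not overlap for securin. The subunit Anapc4 rose from 13.7 ± 2.01 to 20.95 ± 2.99 FPKM (0.58, SE 0.14, limma adjusted p = 0.0475). Of 26 genes of kinetochores, condensin and cytokinesis, Zwint, a kinetochore protein, rose at baseline from 102 ± 1.201 to 124 ± 7.16 FPKM (0.28, SE 0.06, limma adjusted p = 0.0454), and the list had a median of -0.10 with 21 of 26 genes below 0. Without 1 library these calls ended in 6 of 7 refits for Fbxo5, 3 of 7 for Cdc26, 4 of 8 for Pttg1, 6 of 8 for Anapc4 and 7 of 7 for Zwint.

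No gene was called with XPO4 among 10 genes of the RB family and other E2Fs, 5 of the DREAM and MuvB complexes, 29 tested of 30 for origin recognition, GINS and polymerases, or 9 tested of 10 for checkpoint kinases and CDC25. At an unadjusted p under 0.05 these lists held 0, 0, 2 and 0 genes at baseline and 1, 1, 3 and 1 with TGFβ, against 15.2% and 14% of all tested genes, and nothing is read from such small counts. No gene of the 7 lists other than Cdkn1a was called for TGFβ in either cell type.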

How the data were processed

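RNA sequencing of 15 JS1 libraries was analysed from FPKM values the authors deposited, in 1 table for baseline and 1 for TGFβ. Per the labels' protocols, RNA was selected on poly-T beads and libraries were made strand-specific with dUTP. The submitters' processing notes name STAR 2.7.2b, CASAVA 1.8.2 and the builds GRCh38 and mm10, without saying what each served for. How FPKM was computed is not stated in those notes. The number of reads per library is unknown, and counting intervals are therefore left out.

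Groups came from the titles. Members and lists were chosen with earlier results of these data known. Values were tested as log2(FPKM + 1) with limma 3.58.1 (intensity trend, R 4.3.3) over all genes averaging 1 FPKM or more in the fitted libraries, adjusted by Benjamini-Hochberg at 0.05. XPO4 effects were fitted within each table, and TGFβ effects and the interaction on all 15 libraries joined by gene identifier. A fold change on this scale understates changes of low genes. The tests were tried on simulated data with independent noise, without library sets or pairing, and nothing is read from that here. Every member is accounted for. Values per library are given for members past the threshold and always for Mki67, Top2a, Ccnd1, Ccnb1, Cdk1, Mcm2, Pcna, E2f1, Cdkn1b and Cdkn2c. Up to 4 called genes of each other list are named per comparison, with Cdkn1a and Xpo4 as references. Other members were picked as examples after their values were seen.

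The fits were repeated with a pseudocount of 0.1 or 0.5, with the filter dropped or set at 5 FPKM, and with the TPM scale, quantile normalization, blocks by replicate number and library set, no trend, all 4 groups in 1 fit, each library left out, and median centring, which was added after seeing the data. Gene positions are from GENCODE M21 and promoters from RefSeq. Of the 48 members, 17 overlap a gene on the opposite strand, 8 one on the same strand and 5 have a named pseudogene, so their values are less certain. Python 3.11.15 with matplotlib 3.10.9 drew the figures.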

Additional observations from a re-analysis of the deposited data

Results flagged for a closer look

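In 150 sets of 4 libraries, 1 library stood apart from the other 3 by Dixon's criterion 9 times, and chance alone flags about 1 in 20. With the empty vector at baseline, replicate 2 was high for Mki67 (45.6 FPKM, the others 37.4 to 38.4), replicate 0 was high for Kif20a (21.9, the others 19.3 to 19.5), and replicate 3 was low for the G2/M score (5.35, the others 5.41 to 5.42). With the empty vector and TGFβ, replicate 0 was low for Cdk6 (6.38 FPKM, the others 12.04 to 12.9) and replicate 3 was high for Foxm1 (66.1, the others 62.4 to 62.8). In the same group, replicate 2 was low for Cdt1 (66.9 FPKM, the others 78.1 to 80.3), high for Kif11 (28.9, the others 22.9 to 23.8) and high for the G2/M score (5.34, the others 5.27 to 5.28). With XPO4 and TGFβ, replicate 2 was high for Ccna2 (88.3 FPKM, the others 62.2 to 66.0). None of these genes was called in any comparison. The 3 XPO4 libraries at baseline are too few for this criterion.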

How the results depend on the processing

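No result of the members reversed under the alternatives run. Calls of Ccnd1 for TGFβ passed under all of them, with adjusted p from 4.07e-05 to 0.000265 in empty-vector cells and from 0.000357 to 0.00285 in XPO4 cells, and at most 0.000484 and 0.00488 without 1 library. The number of members lower with XPO4 at baseline was 2, and became 1 without the filter and without the trend, 0 with the library set as a block, and 0 to 1 without 1 library. Adjusted p ranged from 0.00491 to 0.207 for Mybl2 and from 0.0146 to 0.164 for Ccnb2. The number higher at baseline became 1, Ccnd1, at a minimum of 5 FPKM and with all 4 groups in 1 fit. With TGFβ the number higher, 1, became 2 with all 4 groups in 1 fit, where Ccnd2 joined, 0 on the TPM scale and after quantile normalization, and 0 to 1 without 1 library. The G1/S score difference for XPO4 moved at baseline to 0.00329 on the TPM scale and 0.0175 after quantile normalization, and with TGFβ to 0.0269 and 0.0411, and to 0.0618 after median centring. The G2/M score difference with TGFβ moved to -0.158 on the TPM scale. The G1/S difference for TGFβ in empty-vector cells moved to -0.0918 on the TPM scale and -0.0916 after quantile normalization. TPM scaling shifted the median of all genes for XPO4 to -0.04 at baseline and -0.06 with TGFβ. Calls over all genes for XPO4 with TGFβ, 346 higher and 102 lower (77.2% higher), became 446 and 230 with all 4 groups in 1 fit, and 66.4% of them were higher on the TPM scale. The causes were not tested. Of the values with no call in either fit, some changed sign, in at most 7 members per setting and comparison among the XPO4 effects.

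Libraries of different groups share replicate numbers, and the correlations did not meet the bar for pairing, over 0.1 in every pair: same-numbered deviations correlated with a median of 0.03 (range -0.15 to 0.29), over 0.1 in 3 of 21, all between replicate 2 libraries. The medians were 0.01 for other numbers of the same set and -0.02 across sets. A library matched its own number best in 13 of 21, among 3 or 4 candidates, a hint of pairing from the data and not from the design. With the replicate block no member was lower at baseline (0; Mybl2 adjusted p = 0.207, Ccnb2 0.164), and all-gene calls were 205 higher and 19 lower against 340 and 103. Depth is unknown, which limits what can be said of low genes.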
